A study of Mus musculus with 6 samples.

Results

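The desmosome genes Dsc1, Dsc2, Dsc3, Dsg2, Dsp, Jup, Pkp2 and Pkp4 were examined in bone marrow cells of young and old mice. Their probes were all non-control probes assigned to a RefSeq transcript of one of these 8 genes. This gave 11 probes on 20 spots, of 55681 probes for 37163 genes on the array. Dsc2 had been picked for its difference between the ages in these same arrays. Values of the 8 genes, and the differences of the 4 that were bright enough to be fitted, are therefore descriptions. Where calls of the fit are counted for them, nothing is read from the counts.

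Total RNA was extracted with Trizol from cells of C57BL/6 mice that the labels call bone marrow mesenchymal stem cells. The young group held 3 samples from mice aged 3 months and the old group 3 samples from mice aged 24 months. Both groups share strain and tissue, and the labels name no treatment, no way of isolating the cells and no pooling. Each sample was hybridised to 1 array of 1 colour, and the number of arrays limits the precision. Whether samples within a group are separate mice is not stated, so p-values measure only the spread between these samples, which may be technical.

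Desmosomes are adhesive plaques that bind neighbouring cells and anchor their intermediate filaments, and they are best known from skin and heart muscle. The desmosomal cadherins, desmocollins and desmogleins, bridge the gap between cells. Inside the cell their tails bind the armadillo proteins plakoglobin and plakophilin, which in turn bind desmoplakin, the link to the filaments. Blood cells are not held together by desmosomes, although plakoglobin and plakophilins also have roles outside them.

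Dsc2, the widely expressed desmocollin, was the only one of these genes measured in all old and in no young sample. Pkp2 and Pkp4, both plakophilin family members, were measured on all 6 arrays, and Dsg2 in the young samples alone. No array measured Dsc1, Dsc3, Dsp or Jup, so no complete set of desmosome components was measured at either age. Measured here means well above background, the scanner software's own call for a spot. Of the 11 probes, 2 had it on all 6 arrays, against 48.1% of all probes on the array, and 7 had it on none, against 35.3%.

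**Figure D1:**
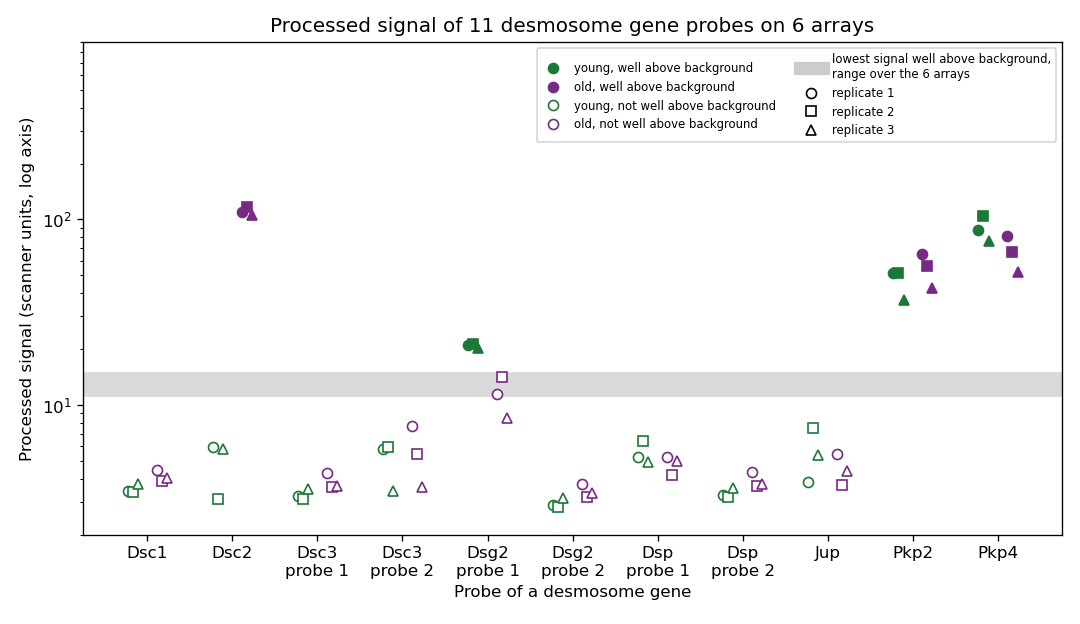
Processed signal (scanner units, log axis) of the 11 desmosome gene probes on the 3 young (green) and 3 old (purple) arrays. Filled points were well above background and open points were not, and the grey band spans each array's lowest well measured signal. Dsc2 is near 110 in old samples and below 6 in young samples.

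The arrays differed in brightness between the ages. The 75th percentile of the log2 signal over probes, converted back to scanner units, was 277 to 349 on young and 206 to 285 on old arrays. The share of probes well above background was 55.2% to 60.0% on young and 50.9% to 53.4% on old arrays. Signals were therefore divided by each array's 75th percentile and are called normalized below, as log2 values. Scaling also moved probes without measurable signal. The 19651 probes that were well above background on no array differed by a median of 0.61 log2 units, higher in old samples. For the 26766 probes measured on all arrays the median was 0.08. All young arrays shared 1 row of the slide and all old arrays the next, so slide row and age cannot be told apart.

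Among the cadherins, the Dsc2 probe (NM_013505) had processed signals of 5.95, 3.12 and 5.77 scanner units in young replicates 1 to 3. In old replicates 1 to 3 the signals were 110, 117 and 106. All old values lay far above all young values, and the old samples differed little from each other (111 ± 5.49, mean ± SD, n = 3). The scanner software's error for these spots was 11.2 to 12.2 in old samples. In young samples it was 3.13 to 3.57, and the signal of young replicate 2 lay within 1% of its error. None of the 6 Dsc2 spots was marked as an outlier or saturated.

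On the normalized log2 scale Dsc2 was -6.07 ± 0.65 in young and -1.10 ± 0.25 in old samples (mean ± SD, n = 3 each). The difference, old minus young, was 4.97 ± 0.33 (standard error from limma). As no young array measured it, this value depends on how background was handled. Set against the lowest measured signal of the young arrays, Dsc2 was at least 10.8-fold higher in old samples. This bound takes the mean of the old arrays over the mean, in the young arrays, of the lowest signal among probes well above background. Means were of log2 values. On arrays where a probe's own signal was above that lowest signal, as for some bounds below, its own signal was used. For genes lower in old samples the ages were swapped. With normexp background correction the log2 difference was 1.69, less than this bound. In the authors' deposited log2 table, which was scaled separately, Dsc2 read 2.47, 1.76 and 2.73 in young and 6.75, 7.13 and 7.09 in old samples.

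Detection on all 3 old and no young arrays was found for 5 of 55681 probes (0.00898%), and Dsc2 was one of them. The other 4 are named here because their detection pattern was seen in the data. Aspa, which encodes the enzyme that cleaves N-acetylaspartate, was at least 7.17-fold higher in old samples. Vmn2r62, a vomeronasal receptor gene, was at least 2.31-fold higher. The predicted transcript XM_001473316 was at least 1.96-fold higher. A probe for the region chr17:17143325-17181500 (mm9, reverse strand in the probe's name) was at least 2.42-fold higher. The opposite pattern, all young and no old arrays, held for 953 probes (1.71%), among them 1 of the Dsg2 probes.

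Dsg2, the desmoglein found in simple epithelia and heart muscle, had 2 probes that disagreed in detection. The brighter probe (NM_007883) gave 21.1, 21.2 and 20.4 scanner units in young replicates 1 to 3. In old replicates 1 to 3 it gave 11.4, 14.1 and 8.55 and was not well above background. In these unscaled signals every old sample was lower than every young one. After scaling the groups overlapped, with -3.99, -4.04 and -3.77 in young and -4.64, -3.99 and -4.59 in old samples. The difference was -0.48 ± 0.20 log2 units, and the bound was at least 1.21-fold lower in old samples. The sign turned with normexp correction (0.21) and when both probes were averaged (0.08). That average takes in the second probe, which no array measured. Probes measured on no array were higher in old samples by a median of 0.61 log2 units after scaling. The second Dsg2 probe gave 2.83 to 3.77 scanner units on the 6 arrays. All 6 of its spots lay within 1% of their own error estimate, as values without measurable signal do here.

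Dsc1 and Dsc3, the desmocollins of stratified epithelia, had no measurable signal. The Dsc1 probe (NM_013504) gave 3.39 to 4.48 scanner units, and all 6 spots lay within 1% of their own error. The same held for 1 of the 2 Dsc3 probes (NM_007882), at 3.13 to 4.29 units. The other Dsc3 probe ranged from 3.42 to 7.74 units, with its highest value in old replicate 1, and no array measured it. No difference between the ages is given for probes of this kind.

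The desmosomal cadherin genes lie side by side in the mouse genome. In the RefSeq gene table of assembly GRCm38.p6 the protein-coding order was Cdh2, Dsc3, Dsc2, Dsc1, Dsg1c, Dsg1a, Dsg1b, Dsg4, Dsg3, Dsg2 and Ttr. Both direct neighbours of Dsc2, namely Dsc3 and Dsc1, were unmeasured. Along this stretch only Cdh2, which encodes N-cadherin, was measured on all 6 arrays, and Dsg1c on 2 young and 2 old arrays. In the limma fit neither passed the threshold of an adjusted p of 0.05 (Benjamini-Hochberg over all tested genes). Cdh2 differed by 0.47 ± 0.12 log2 units (adjusted p = 0.0680) and Dsg1c by -0.16 ± 0.61 (adjusted p = 0.894).

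Among the armadillo proteins, Pkp2 (NM_026163), the plakophilin of heart muscle and simple epithelia, gave 51.4, 51.4 and 36.6 scanner units in young replicates 1 to 3. In old replicates 1 to 3 it gave 65.2, 55.9 and 42.6. These unscaled signals overlapped between the ages, with old replicate 3 below 2 of the young samples. Divided by the 75th percentile they no longer overlapped. The normalized log2 values were -2.70, -2.76 and -2.92 in young and -2.13, -2.0 and -2.27 in old samples. The difference after scaling was 0.66 ± 0.11 log2 units, against 0.23 before it. Probes measured on all 6 arrays, as Pkp2 was, shifted by a median of 0.08 on the same scale. With quantile normalization the Pkp2 difference was 0.62 and with cyclic loess 0.61. The part of brightness and scaling in the Pkp2 difference was not tested.

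Pkp4 (NM_026361), also called p0071 and found at adherens junctions as well as desmosomes, was the member closest to 0. It gave 87.3, 105 and 76.6 scanner units in young and 81.6, 67.1 and 52.1 in old replicates 1 to 3. Its normalized log2 values were -1.94, -1.74 and -1.86 in young and -1.81, -1.74 and -1.98 in old samples, so the groups overlapped fully. The difference was -0.00026 ± 0.10 log2 units.

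Jup (NM_010593) encodes plakoglobin, the armadillo protein shared by desmosomes and adherens junctions. Its probe gave 3.83, 7.55 and 5.38 scanner units in young and 5.43, 3.72 and 4.39 in old samples. The highest and the lowest of these values came from young replicate 2 and old replicate 2, and none was well above background.

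**Figure D2:**
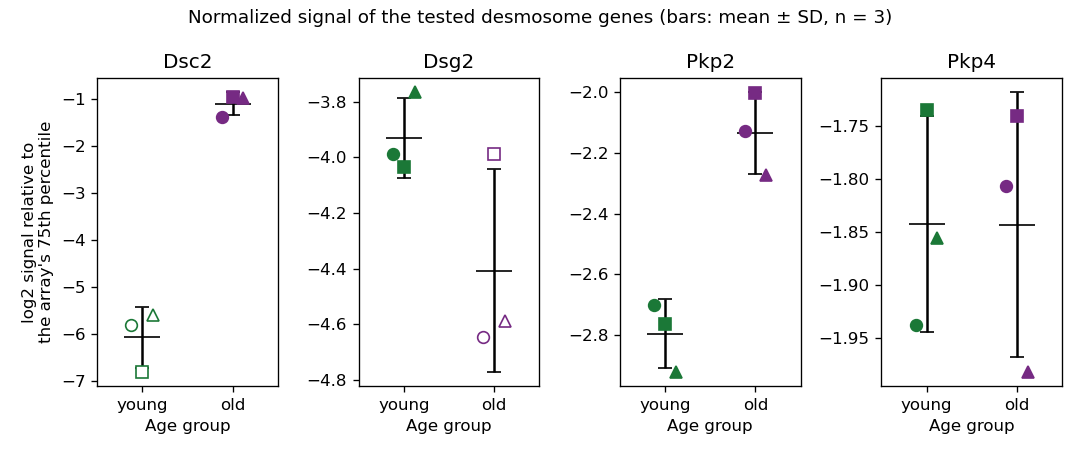
Normalized log2 signal (75th percentile of each array set to 0) of Dsc2, Dsg2, Pkp2 and Pkp4 in the 3 young and 3 old samples, with mean ± SD (n = 3), each gene on its own axis. Open points were not well above background. The groups lie apart in Dsc2 and Pkp2 and overlap in Dsg2 and Pkp4.

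Dsp encodes desmoplakin, the plakin that ties the plaque to intermediate filaments, and was probed by 11 spots on each array. A probe spotted 10 times per array (NM_023842) shows how far signals near background scatter within an array. The median of its spots was 4.55, 6.12 and 5.62 scanner units on young arrays 1 to 3 and 4.73, 3.95 and 4.01 on old arrays 1 to 3. Single spots reached from 3.1 to 16.2 units, a spread of 0.34 to 0.71 log2 units (SD within an array). Of its 60 spots none was well above background. The highest, on young array 3, was marked as an outlier and left out of the probe's mean. That spot is included in the medians, range and spread given here, and the next highest spot was at 14.3 units. The other Dsp probe gave 3.17 to 4.35 units. The young signals of Dsc2 lay inside this range of the Dsp spots, and its old signals lay far outside it.

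**Figure D3:**
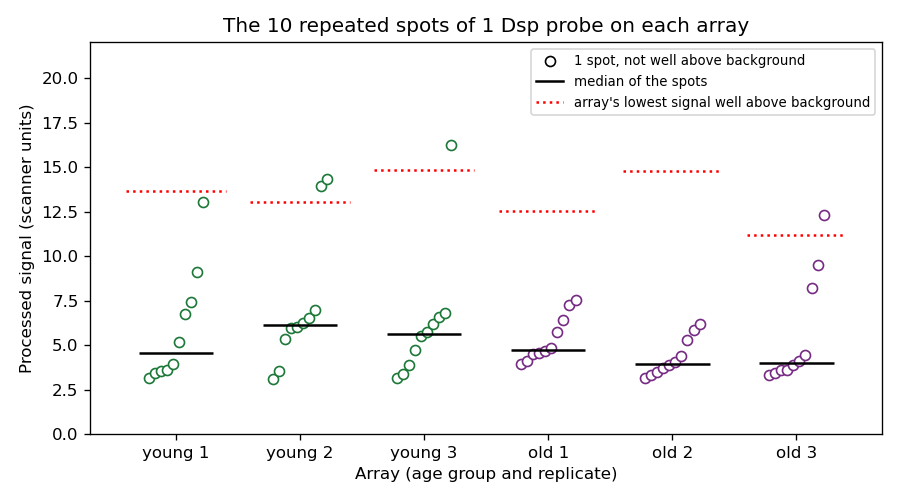
Processed signal (scanner units) of the 10 repeated spots of 1 Dsp probe on each of the 6 arrays. Black lines mark the median and red dotted lines the array's lowest signal that was well above background. Spots of a single array spread from about 3 to 16 units, the highest being a spot marked as an outlier.

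By gene, 4 of the 8 members could be fitted, since the limma fit took genes whose brightest probe was measured on 3 or more of the 6 arrays. Dsc2 entered through its old arrays alone and Dsg2 through its young arrays alone. Dsc2 and Pkp2 were past the threshold, both higher in old samples. Of the 23266 tested genes 3.98% were called higher and 8.01% in either direction, and of 31286 tested probes 7.8%. No member was called lower by limma, against 4.04% of all genes, and at an unadjusted p under 0.05 there was 1, Dsg2. The groups did not overlap in the same 2 members, against 22.9% of all genes for old above young and 36% in either direction. Dsc2 was picked from this comparison and could enter only by being high in old samples, so its call is no test.

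With 1 array left out, the Dsc2 difference was 4.6 to 5.21 log2 units and the Pkp2 difference 0.59 to 0.73. The Dsc2 call ended without old replicate 2 (4.9) or old replicate 3 (4.91), and the Pkp2 call without any 1 of the 6 arrays. Over all genes the limma calls dropped to 0 higher and 1 lower without old replicate 2 and 0 higher and 5 lower without old replicate 3.

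**Figure D4:**
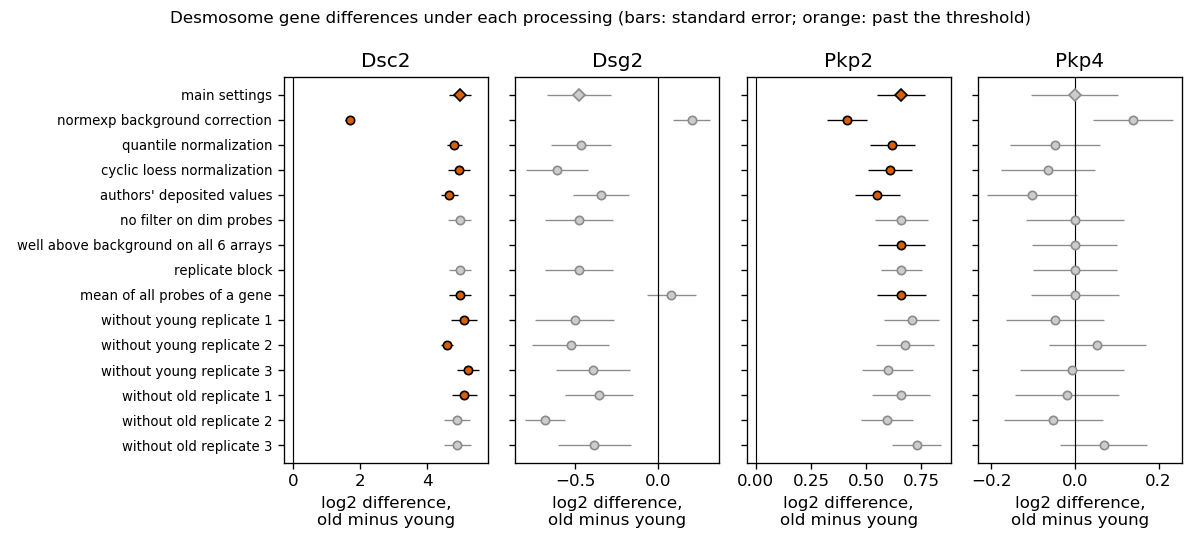
Log2 difference, old minus young, of the 4 tested desmosome genes under each processing, with standard errors, each gene on its own axis. Diamonds mark the main settings and orange points are past the threshold. Dsc2 stays between 1.69 and 5.21 and Pkp2 between 0.41 and 0.73, while Dsg2 and Pkp4 fall on both sides of 0.

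The remaining genes of the desmosome changed in none of the 6 tested members (limma, Benjamini-Hochberg adjustment; 12 genes listed, median log2 difference -0.12, against 0.07 over all tested genes). The desmogleins Dsg1a, Dsg1b, Dsg3 and Dsg4, the plakophilin Pkp1 and the actin-binding Pof1b were measured on no array. Pkp3, a plakophilin of most epithelia, was measured on all arrays. Its normalized log2 values were 3.40, 3.33 and 3.72 in young and 3.38, 3.64 and 3.49 in old samples, a difference of 0.02 ± 0.13 (limma adjusted p = 0.930). Evpl, which encodes the cornified envelope plakin envoplakin, differed by -0.14 ± 0.16 (adjusted p = 0.602). Perp, which encodes a desmosomal membrane protein induced by p53, is named because its values stood out. It was well above background on 3 young and no old arrays and was at least 2.54-fold lower, but did not pass (adjusted p = 0.0626).

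Of 49 tested genes in 5 lists of junction genes, 1 rose and 3 fell, against 8.01% of all tested genes called in either direction. The lists covered other desmosome genes, adherens junctions, plakins and intermediate filaments, tight junctions, and desmosome assembly and shedding. Their joint median was -0.06 log2 units. None of the 12 tested adherens junction genes passed in the limma fit (median 0.05). The catenins Ctnna1 and Ctnnb1, bright on all arrays, differed by -0.08 ± 0.09 and 0.07 ± 0.11 log2 units (adjusted p = 0.623 and 0.726). Cdh1, which encodes E-cadherin, was measured on 2 young and no old arrays and was not tested. Of the 13 tested genes of desmosome assembly and shedding, none passed (median 0.09). At an unadjusted p under 0.05 the lists together had 8 genes higher and 11 lower.

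Of the 3 junction genes that fell, 2 belong to the filament list. Vim, which encodes the mesenchymal filament protein vimentin, had normalized log2 values of 2.58, 2.86 and 3.62 in young and 1.60, 1.20 and 1.05 in old samples. It fell by 1.74 ± 0.29 (limma adjusted p = 0.0296). Plec, which encodes the filament linker plectin, fell by 0.57 ± 0.11 (adjusted p = 0.0396). These were 2 of 8 tested plakin and filament genes, with a median of -0.24. The desmin gene Des and the epithelial keratin genes Krt7, Krt8, Krt15 and Krt19 were measured on no array, whereas Krt5, Krt10, Krt14 and Krt18 were measured on all 6 and Krt17 on 3 young and 1 old. None of these 5 passed the threshold.

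Of 10 tested tight junction genes 1 rose and 1 fell, with a median of 0.02. Cldn4, which encodes an epithelial claudin, was -2.02, -2.28 and -2.63 in young and -1.60, -1.53 and -1.27 in old samples on the normalized log2 scale. It rose by 0.85 ± 0.18 (limma adjusted p = 0.0435). Tjp3, which encodes the scaffold ZO-3, fell by 0.57 ± 0.11 (adjusted p = 0.0348), and with normexp correction it differed by -0.29 and did not pass. In limma fits that left out 1 array, the calls of Plec, Tjp3 and Cldn4 ended whichever array was missing. The Vim call ended when young replicate 2 was missing, and likewise for old replicate 2 and old replicate 3. The differences ranged from -0.64 to -0.49 for Plec, -0.66 to -0.49 for Tjp3, 0.69 to 0.99 for Cldn4 and -1.96 to -1.44 for Vim.

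**Figure D5:**
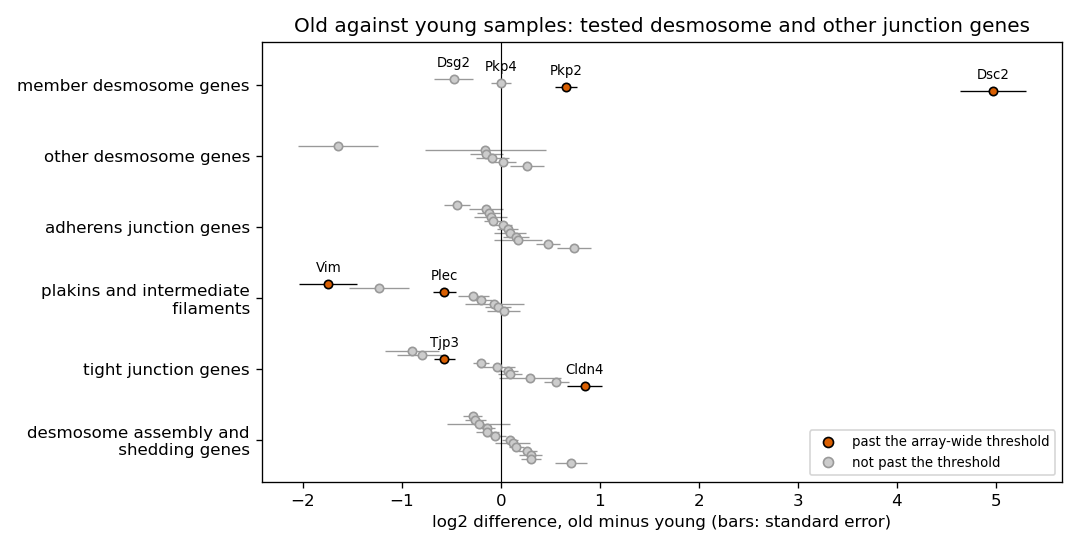
Log2 difference, old minus young, with standard errors, of the 4 tested member genes and of the tested genes in 5 junction lists. Orange points passed the array-wide threshold. Dsc2 lies near 5, while the junction genes that passed lie between -1.74 and 0.85.

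Markers of other cell types were measured in the same samples, and their part in the Dsc2 difference was not tested. In bulk RNA, fewer cells of a type and less RNA per cell cannot be told apart. Of the epithelial list, 10 of 18 genes were tested and 1, Cldn4, rose. Of the list, Epcam, Krt8, Krt19, Grhl2, Elf3, Ovol1 and Spint1 were measured on no array. Others were measured on all 6, among them Krt5, Krt14, Krt18, Esrp1, St14, Cldn7 and Trp63. Trp63, the epithelial p63 gene, was bright, at 3.40 in young and 3.84 in old samples (difference 0.44 ± 0.13, limma adjusted p = 0.0840). The summed signal of that list, relative to the 75th percentile, was 12.3 to 14.1 in young and 14.8 to 18.6 in old samples. Most of each sum came from Trp63 alone, so the sums say little about the other genes of the list.

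In the limma fit genes of several blood cell lists fell, in the samples where Dsc2 was higher. B cell markers fell in 6 of 11 tested genes, with summed signals of 40.8 to 79.3 in young and 8.23 to 16.8 in old samples, against 4.04% of all tested genes called lower. Log2 differences were -3.14 ± 0.30 for Ebf1, the B lineage factor, -1.75 ± 0.22 for Blnk and -2.81 ± 0.38 for Vpreb3 (adjusted p between 0.0175 and 0.0233). Ebf1 was measured on 1 of 3 old arrays, so its size is uncertain, and with normexp it was -1.40. Monocyte and macrophage markers fell in 7 of 9 tested genes (12.9 to 23.4 in young and 8.0 to 8.74 in old samples). They included Mpeg1 (-2.36 ± 0.29), Aif1 (-1.91 ± 0.28), Ccr2 (-2.51 ± 0.37) and Mrc1, which was at least 1.66-fold lower (adjusted p between 0.0219 and 0.0260). With normexp Mrc1 did not pass and differed by -0.15, less than that bound, while Aif1 was at -0.95 and Ccr2 at -1.20. Neutrophil markers fell in 3 of 11, namely Mmp8 (-1.86 ± 0.32), Mmp9 (-2.23 ± 0.46) and Retnlg (-1.82 ± 0.30), with sums of 1791 to 2792 and 1161 to 1494. Most of each neutrophil sum came from S100a9 and S100a8, which did not pass (limma adjusted p = 0.101 and 0.0692). Likewise, most of each monocyte and macrophage sum came from Csf1r, which did not pass (limma adjusted p = 0.272). These sums therefore say little about the other genes of the 2 lists.

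Other marker lists moved less or in both directions. Erythroid markers changed in none of 11 tested genes in the limma fit (653 to 865 in young and 717 to 804 in old samples), with Hba-a1 at -0.01 ± 0.17 and Ermap at 0.10 ± 0.10. Megakaryocyte markers changed in none of 11, and their sums overlapped and varied widely, at 14.6 to 46.1 and 20.3 to 59.2. Pf4 of that list differed by 1.67 ± 1.25 (adjusted p = 0.432) and Gp9 by -0.10 ± 0.13. Of 8 tested endothelial genes Kdr, the VEGF receptor gene, rose by 0.81 ± 0.16 (adjusted p = 0.0391), but averaged over its 2 probes it was at -0.055. The endothelial sums were 54.0 to 64.9 in young and 73.7 to 96.2 in old samples. Most of each sum came from Kdr and Egfl7, the latter named for its brightness. Egfl7 differed by 0.39 ± 0.15 and did not pass (limma adjusted p = 0.162). The sums therefore say little about the other endothelial genes. Of 8 tested stromal genes 4 fell and 1 rose (32.2 to 46.9 and 45.0 to 52.1). Most of each sum came from Lepr, Cd44 and Eng, with Cd44 and Eng named for their brightness. Cd44 and Eng did not pass (limma adjusted p = 0.0788 and 0.256). The stromal sums therefore say little about the other genes of the list, whose tested genes had a median of -1.98 log2 units. The stromal genes Pdgfra, Pdgfrb, Prrx1, Twist1 and Foxc1, markers of marrow stroma, were measured on no array. Lepr rose by 1.02 ± 0.14, whereas Sparc (-4.30 ± 0.77) and Cxcl12 (-2.40 ± 0.43) fell, and Col1a1 was at least 37.3-fold lower (adjusted p between 0.0222 and 0.0324). With normexp Cxcl12 was at -1.10 and Col1a1 at -3.21, the latter less than its bound, and averaged over its 2 probes Cxcl12 did not pass (limma adjusted p = 0.101). All blood cell, stromal and endothelial calls named here ended without old replicate 2 and without old replicate 3.

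The genes whose normalized log2 values were most like those of Dsc2 over the 6 arrays, among 13534 tested genes with a symbol, were Marveld1, Spint2, Rps2, Pebp1 and Uhmk1. Pearson's r was 0.9995, 0.9974, 0.9972, 0.9969 and 0.9960, a description of 6 points that fall into 2 age groups. Marveld1 encodes a membrane protein with a MARVEL domain, and Spint2 a membrane-bound protease inhibitor of epithelia. The differences of these genes between the ages were far smaller than that of Dsc2, at 0.49 for Marveld1, 0.59 for Spint2, 0.30 for Rps2, 0.56 for Pebp1 and 0.73 for Uhmk1. After each age group's mean was subtracted, a different set came first, with Th, Apoa2, Glis1, Kcna3 and Lcn12 at r = 0.9957 to 0.9892. That measure rests on the scatter of the young Dsc2 signals, which were not above background.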

How the data were processed

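The authors deposited 1 Agilent Feature Extraction file per array with spot intensity values (version 10.7.3.1 and mm9 probe annotation per the file headers; version 10.5.1.1 per the submitters' processing notes). Per the file headers, the scanner software removed background and spatial trends from the processed intensity of each array, and arrays were not scaled to one another. A further file deposited by the authors holds log2 values for 52095 probes. How it was scaled was not given in any source used here; its columns had medians of 4.87 to 4.95 and correlated with their own arrays at r of at least 0.9986.

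Control spots and outlier spots were left out, the log2 values of repeated spots were averaged, and each array's 75th percentile over probes was subtracted. A probe counted as well above background when at least 0.5 of its spots did. Symbols came from RefSeq (GRCm38.p6) by accession, for 26413 of 55681 probes (47.4%), including 97.9% of those with an NM accession. Each gene was represented by its brightest probe over all 6 arrays. The age comparison used lmFit and eBayes of limma 3.58.1 (R 4.3.3), without covariates, over 23266 genes, with Benjamini-Hochberg adjustment and a threshold of 0.05. The code was tested on simulated data. Python 3.11.15 and pandas 2.3.3 read the files.

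Named genes were all members, those list genes that passed (by smallest p, up to 4 per list, or the 2 brightest where none did), and the 5 genes most like Dsc2 by each of 2 measures. A gene that this rule names is not reported here. The members and lists were chosen with earlier results of these data known. Alternatives covered normexp (offset 50, on the median signals, as the files used here hold no mean signal), other normalizations, the deposited values, the dim-probe filter, the probe choice, leaving out each array, and the replicate number as a block. No desmosome gene sequence is shown.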

Additional observations from a re-analysis of the deposited data

How the results depend on the processing

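Main settings gave 925 genes higher and 939 lower in old samples, 2440 probes, 2 members higher and none lower, and 1 junction gene higher and 3 lower. With the replicate block, and without the filter on dim probes, each of these limma counts was 0, against 3223 higher and 2331 lower genes (block) and 9009 and 2653 (no filter) at an unadjusted p under 0.05; 2 and 4 members were then higher and none lower, and junction genes were 6 and 20 higher, 8 and 11 lower. Counts without the filter take in probes measured on no array, and the 4 members higher there include genes that no array measured. After scaling, probes of that kind were higher in old samples by a median of 0.61 log2 units. Same-numbered samples did not deviate together (r = -0.03, 0.02 and -0.01), so the numbers do not pair them. Normexp gave 1806 higher and 1105 lower genes, 4132 probes and 6 higher junction genes, and the deposited values 597 and 934 genes; the cause was not tested. Measured on all 6 arrays, 1 member (Pkp2, as Dsc2 no longer entered) and 4 junction genes were higher, and averaging probes gave 2. Leaving out 1 array gave 0 to 558 genes higher and 1 to 596 lower, 0 to 1332 probes, 0 to 1 members higher, and 0 to 1 junction genes in each direction. Over the alternatives the difference of Dsc2 was 1.69 to 5.21 and that of Pkp2 0.41 to 0.73; the calls of all marker genes named above ended with the block and without the filter, and Kdr turned to -0.055 when its 2 probes were averaged. The lowest signal well above background was 11.2 to 14.8 scanner units by array, and differences of Dsc1, Dsc3, Dsp and Jup were not detectable here.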
